A study of Homo sapiens with 9 samples.

Results

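Small nucleolar RNA host genes were described in U937 cells, an established human cell line of the monocytic lineage, during the induction of leukemia fusion proteins. A gene was taken as a member when its name was SNHG followed by a number, or was GAS5, ZFAS1 or EPB41L4A-AS1, and 31 of the 60623 genes in the files met this rule. The rule used names only. RNA-seq libraries made from total RNA as input covered 3 stable lines, each made with a retroviral Tet3G vector. One carried HA-tagged AML1-ETO, one carried HA-tagged ETO2-GLIS2 and one, with the genotype label WT, carried the empty vector. Doxycycline, which turns on the vector, was added at 5 μg/ml and cells of each line were taken at 0, 12 and 48 h, so the empty vector line received the same drug for the same times. The fusion lines were single clones, the fusion genes were expressed from an integrated vector and not from a leukemic chromosome, and each of the 9 conditions had 1 library. Differences between conditions therefore have no replicate check and no test was run. Clone, culture and library cannot be told apart from the fusion protein, and time in culture cannot be told apart from the drug.

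Small nucleolar RNAs (snoRNAs) guide the chemical modification of ribosomal RNA, C/D box snoRNAs directing ribose methylation and H/ACA box snoRNAs directing pseudouridylation. Most human snoRNAs are cut out of introns, and in a host gene of the SNHG type the introns are the product with the clearest function, while the spliced RNA carries short open reading frames. Many of these spliced RNAs are engaged by ribosomes and are then destroyed by nonsense-mediated decay, the pathway that removes RNAs on which translation stops early, so that their level reflects transcription, translation and decay together. Reads of spliced and unspliced RNA of the host gene were not separated, and the levels of the snoRNAs themselves were not analysed here.

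The label was checked against the RefSeq gene table for GRCh38.p14. At least 1 small RNA gene lay within the bounds of 26 of the 31 members, 146 small RNA genes in all, of which 121 were of the C/D type and 21 of the H/ACA type. SNHG14 held 84 of them, GAS5 held 11 and SNHG1 held 9. The RefSeq table gave no such gene within SNHG10, SNHG20, SNHG21, SNHG22 or SNHG27. It gives SNHG20, SNHG21 and SNHG22 older names as hosts of small Cajal body RNAs, and in the GENCODE annotation exons of SNHG10 overlap SCARNA13 and exons of SNHG22 overlap SCARNA17 and SCARNA18. The hosts also differed in the kind of snoRNA: ZFAS1, SNHG5, SNHG16, SNHG29 and SNHG32 held C/D snoRNAs, whereas SNHG3, SNHG4, SNHG7, SNHG8, SNHG15 and EPB41L4A-AS1 held H/ACA snoRNAs. For 6 hosts whose values are described in detail, a snoRNA is given here from the GENCODE transcripts, with the C box TGATGA and the D box CTGA of C/D snoRNAs and the ACA box of H/ACA snoRNAs in capitals.
SNORD44, in GAS5: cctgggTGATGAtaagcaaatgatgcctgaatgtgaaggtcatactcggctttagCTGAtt
SNORD65, in SNHG29: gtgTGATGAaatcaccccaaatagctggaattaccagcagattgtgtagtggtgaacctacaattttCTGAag
SNORD12, in ZFAS1: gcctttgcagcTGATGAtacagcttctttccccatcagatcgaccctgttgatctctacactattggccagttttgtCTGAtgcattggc
SNORD60, in SNHG19: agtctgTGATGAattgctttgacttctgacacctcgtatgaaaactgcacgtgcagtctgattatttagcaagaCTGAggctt
SNORA24, in SNHG8: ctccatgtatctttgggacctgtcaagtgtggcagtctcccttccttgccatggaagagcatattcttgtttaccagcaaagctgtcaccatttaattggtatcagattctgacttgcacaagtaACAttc
SNORA9, in SNHG15: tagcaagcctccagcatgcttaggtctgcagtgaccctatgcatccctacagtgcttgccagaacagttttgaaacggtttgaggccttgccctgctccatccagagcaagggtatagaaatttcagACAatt

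Host genes of this family are known for starting transcription at a C followed by pyrimidines, the terminal oligopyrimidine start that they share with ribosomal protein genes. In the RefSeq promoters, 7 of the 27 members with an entry (25.9%) had a C at the annotated start followed by at least 4 pyrimidines, and 4.07% of all 35116 promoters did. The letters TATAA, read on the strand of the gene between 45 and 16 bases before the start, were present in 6 members (22.2%) and in 4.09% of all promoters. SNHG5, SNHG12, SNHG19 and ZFAS1 had both (14.8%), as did 0.094% of all promoters. These shares describe the annotated starts, and the start used in these cells was not measured. The windows run from 35 bases before the start to the 25th base from it (GRCh38.p14, 60 bases each, strand of the gene), with TATAA and, where the start is a C, the unbroken pyrimidine run from the start in capitals. The first 4 hold both features, the next 4 hold 1 of them, and GAS5, SNHG29 and SNHG3 are shown because they are highly expressed and hold neither at the annotated start.
SNHG5, chr6:85678709-85678768, minus: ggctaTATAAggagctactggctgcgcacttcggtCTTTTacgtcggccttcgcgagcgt
SNHG12, chr1:28581849-28581908, minus: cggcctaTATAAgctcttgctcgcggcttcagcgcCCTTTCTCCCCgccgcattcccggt
SNHG19, chr16:2155334-2155393, minus: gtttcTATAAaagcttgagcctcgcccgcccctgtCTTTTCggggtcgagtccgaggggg
ZFAS1, chr20:49278607-49278666, plus: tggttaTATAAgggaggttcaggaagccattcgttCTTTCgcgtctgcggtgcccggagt
SNHG4, chr5:139274066-139274125, plus: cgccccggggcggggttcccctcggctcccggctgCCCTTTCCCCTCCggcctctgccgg
SNHG32, chr6:31834881-31834940, plus: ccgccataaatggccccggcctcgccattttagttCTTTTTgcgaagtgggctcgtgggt
SNHG7, chr9:136728160-136728219, minus: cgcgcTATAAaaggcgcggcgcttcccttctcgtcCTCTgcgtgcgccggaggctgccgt
SNHG8, chr4:118278727-118278786, plus: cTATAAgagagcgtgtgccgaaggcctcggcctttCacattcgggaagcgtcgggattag
GAS5, chr1:173869021-173869080, minus: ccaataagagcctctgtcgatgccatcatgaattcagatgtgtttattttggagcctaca
SNHG29, chr17:16438952-16439011, plus: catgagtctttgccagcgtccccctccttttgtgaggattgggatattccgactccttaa
SNHG3, chr1:28505908-28505967, plus: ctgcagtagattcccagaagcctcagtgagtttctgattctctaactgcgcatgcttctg

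Levels are given as FPKM, a read count corrected for the length of the gene's exons and for the size of the library. Between 15136398 and 18443639 reads per library lay on genes. Of the genes whose sequence the fusions carry, RUNX1T1 (ETO) rose from 0.512 to 22.2 and 28.7 FPKM over 0, 12 and 48 h of AML1-ETO induction, and with ETO2-GLIS2 the FPKM of GLIS2 rose from 2.39 to 6.79 and then 8.85. At 0 h RUNX1T1 was listed at 0 in the empty vector and ETO2-GLIS2 lines. The paper regards some leaky fusion expression before doxycycline as likely, and this was not tested here. Uninduced therefore means before doxycycline and not free of the fusion. The AML1-ETO library at 48 h stood apart over the whole transcriptome, with 17.3% of all genes past a 2-fold rise and 11.3% past a 2-fold fall. Among markers of the monocytic lineage, LYZ, the lysozyme of monocytes, ranged from 45.1 to 1517 FPKM and was lowest in that library. So was SPI1, the factor PU.1, which ranged from 11.9 to 97.3 FPKM. Of 12 such markers, 7 had a mean of at least 1 FPKM over 0 and 48 h of AML1-ETO. From 0 to 48 h, 5 of these 7 fell past 2-fold and 0 rose past it. CD33, FCGR1A and MPO were instead lowest at 0 h of AML1-ETO, and CD14 did not exceed 0.0802 FPKM. CD68 was listed at 0 in 7 of the 9 libraries. The elongation factor gene EEF1G, which every cell uses, was also listed at 0 in all 9 libraries, so a 0 in these files is not read as absence of the RNA. The T cell markers CD3D, CD3E and CD3G and the B cell marker MS4A1 were listed at 0 in all 9 libraries.

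GAS5, SNHG29 and SNHG6 were the most abundant members, and the family spanned a wide range of levels. The mean over the 9 libraries reached 1 FPKM in 19 members and was below 1 but above 0 in 10 members, of which the highest, SNHG26, had 0.936 FPKM. SNHG18 and SNHG28 were listed at 0 in all 9 libraries, and 24 members had at least 3 reads in all of them. The reads on all members together made up 0.111%, 0.156% and 0.202% of the reads on genes over 0, 12 and 48 h in the empty vector line. They made up 0.128%, 0.214% and 0.243% with AML1-ETO, and 0.124%, 0.141% and 0.174% with ETO2-GLIS2. The family total was thus lowest at 0 h in every line and highest at 48 h of AML1-ETO. GAS5 and SNHG29 alone held 3369 and 5372 of the 18038 member reads in the uninduced empty vector library, so the total says little about the smaller members.

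Before induction, the differences between the lines in these genes were under 2-fold, as they were for most genes. Of 17 measured members, none differed 2-fold between the uninduced AML1-ETO line and the uninduced empty vector line, where 2.67% of all genes were higher and 2.24% lower past 2-fold, and the log2 differences ran from -0.48 (SNHG4) to 0.71 (SNHG7). Measured means here a mean of at least 1 FPKM over the 2 libraries compared. None of 17 differed 2-fold in the uninduced ETO2-GLIS2 line either, against 3.42% of all genes higher and 2.99% lower. SNHG19 came closest, at 12.5 against 6.65 FPKM, a log2 difference of 0.91 with an interval from 0.33 to 1.52, as it had only 79 and 37 reads. Intervals here and in what follows are exact 95% intervals of the read ratio and cover counting error only. In the uninduced AML1-ETO line 14 of 17 members were above the empty vector line, with a median log2 difference of 0.16, against 51.1% and 0.01 for all genes. In the uninduced ETO2-GLIS2 line 12 of 17 were above it, with a median of 0.15, against 48.6% and -0.02 for all genes.

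The median change of the measured members from 0 h was above 0 in each line and at each time. Of all genes, 60.9% to 68.0% also lay above their 0 h value in these comparisons, and 66.8% did at 12 h of AML1-ETO. At 12 h of AML1-ETO, 7 of 19 measured members were past a 2-fold rise and all 19 lay above their 0 h value, with a median log2 change of 0.92 and a range from 0.38 to 2.09. In that comparison 6.57% of all genes and 25.6% of long noncoding RNA genes were past a 2-fold rise, and the medians were 0.18 for all genes and 0.51 for long noncoding RNA genes, a class that includes these members. At 12 h the empty vector line had 1 of 18 measured members past a 2-fold rise (5.64% of all genes, 23.2% of long noncoding RNA genes) and a median of 0.53. The ETO2-GLIS2 line had 0 of 18 (3.03% of all genes, 13% of long noncoding RNA genes) and a median of 0.30. The medians of the long noncoding RNA class at 12 h were 0.55 in the empty vector line and 0.32 in the ETO2-GLIS2 line, about those of the host genes.

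At 48 h the order of the lines was different. The empty vector line had 6 of 20 measured members past a 2-fold rise, against 8% of all genes and 26% of long noncoding RNA genes, with a median of 0.84 against 0.16 and 0.51. The AML1-ETO line had 6 of 18, against 17.3% of all genes and 42.6% of long noncoding RNA genes, with a median of 0.63 against 0.22 and 0.79. The ETO2-GLIS2 line had 2 of 18, against 10.8% and 36.5%, with a median of 0.38 against 0.16 and 0.73. In both fusion lines at 48 h the host genes therefore lay below the long noncoding RNA class in share and in median. No measured member was past a 2-fold fall from 0 h. Of all genes, 1.88%, 2.39% and 1.46% were at 12 h and 2.99%, 11.3% and 2.54% at 48 h of the empty vector, AML1-ETO and ETO2-GLIS2 lines. The number of members that were measured only because 1 of the 2 libraries reached the level needed was 3 in the empty vector line at 48 h (SNHG10, SNHG26 and ZFAS1) and 1 in each other comparison, and such members had to differ to be measured.

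**Figure D1:**
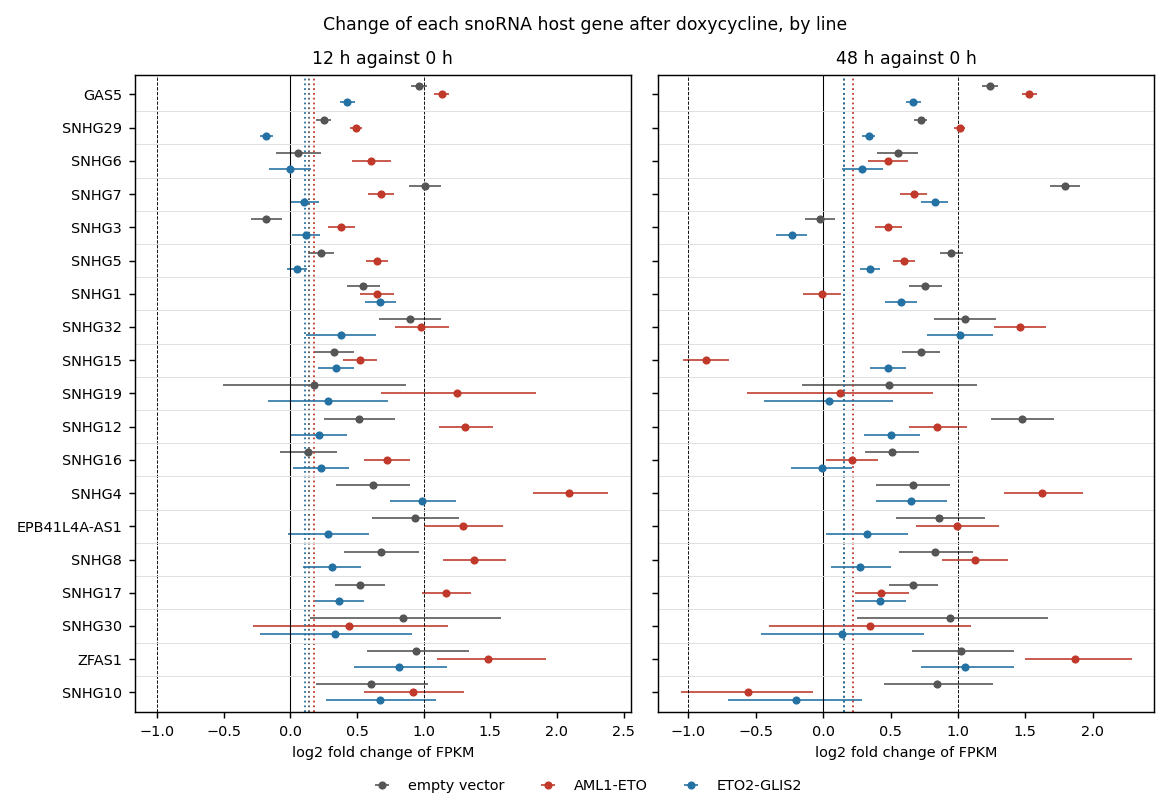
The change of the 19 members with a mean of at least 1 FPKM is plotted for 12 h (left) and 48 h (right), each set against its own 0 h library, with the log2 fold change of FPKM on the horizontal axis; grey, red and blue points are the empty vector, AML1-ETO and ETO2-GLIS2 lines, bars are 95% counting intervals, dotted lines are the medians of all genes and dashed lines mark 2-fold. At 12 h the red points lie to the right of the all-gene median for each member shown, and at 48 h SNHG15 and SNHG10 are the members whose red points fall clearly below 0.

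GAS5 (growth arrest specific 5, chr1:173863901-173869045), which accumulates in many cell types when growth stops, was the most abundant member in the 6 libraries after doxycycline, and SNHG29 was the most abundant in the 3 uninduced libraries. Its level was 42.8, 83.4 and 101 FPKM at 0, 12 and 48 h in the empty vector line, 47.7, 105 and 138 FPKM in the AML1-ETO line, and 49.7, 66.7 and 79.0 FPKM in the ETO2-GLIS2 line. All 3 lines began at close levels and were higher at both later times, the AML1-ETO line most and the ETO2-GLIS2 line least. The log2 change of GAS5 at 48 h was 1.23 (interval 1.18 to 1.29), 1.53 (1.48 to 1.58) and 0.67 (0.61 to 0.73) in that order of lines, and at 12 h it was 0.96, 1.14 and 0.42.

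SNHG29 (chr17:16438987-16470648), which holds SNORD49A, SNORD49B and SNORD65, had the same order of lines at both times. It was at 46.0, 54.7 and 76.0 FPKM in the empty vector line, 57.8, 81.1 and 116 FPKM in the AML1-ETO line and 51.1, 45.1 and 64.5 FPKM in the ETO2-GLIS2 line. Only the AML1-ETO line passed 2-fold at 48 h, with a log2 change of 1.01 (0.97 to 1.05), against 0.72 in the empty vector line. In the ETO2-GLIS2 line the level at 12 h was below that at 0 h, by a log2 change of -0.18 (-0.23 to -0.13), and the level at 48 h was above both.

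SNHG32 (chr6:31834916-31839761) and ZFAS1 (chr20:49278178-49289260), hosts of SNORD48 and SNORD52 and of the SNORD12 family, were past 2-fold at 48 h in all 3 lines. SNHG32 was at 8.33, 15.5 and 17.2 FPKM in the empty vector line, 10.5, 20.9 and 29.0 FPKM in the AML1-ETO line and 6.47, 8.41 and 13.1 FPKM in the ETO2-GLIS2 line. Its log2 change at 48 h was 1.05 (0.82 to 1.28), 1.46 (1.27 to 1.65) and 1.01 (0.77 to 1.26), and 29.1% of its annotated exon bases are shared with another gene on the same strand. ZFAS1, which starts beside ZNFX1 on the other strand, was at 0.673, 1.30 and 1.38 FPKM in the empty vector line, 0.515, 1.46 and 1.90 FPKM in the AML1-ETO line and 0.717, 1.27 and 1.5 FPKM in the ETO2-GLIS2 line. In each line its value at 12 h was above that at 0 h and its value at 48 h was above both, with log2 changes at 48 h of 1.02 (0.66 to 1.41), 1.87 (1.5 to 2.29) and 1.05 (0.72 to 1.41). The level of ZFAS1 at 0 h was below 1 FPKM in each line, and it was measured at 48 h only through the induced library. Of its exon bases, 36.4% overlap genes on the opposite strand, and the kit did not mark strand, so reads of either strand cannot be told apart.

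SNHG3 (chr1:28505943-28510892), host of the SNORA73 (U17) snoRNAs that act in ribosomal RNA processing, was the other member with a mean of at least 1 FPKM whose value was highest at 48 h in the AML1-ETO line. It was at 20.3, 17.9 and 19.96 FPKM in the empty vector line, 21.2, 27.6 and 29.7 FPKM in the AML1-ETO line, and 18.9, 20.5 and 16.1 FPKM in the ETO2-GLIS2 line. The AML1-ETO line was higher at both times, with log2 changes of 0.38 and 0.48, whereas the empty vector line was lower at 12 h by a log2 change of -0.18 (-0.30 to -0.07) and the ETO2-GLIS2 line was lower at 48 h by -0.24 (-0.35 to -0.12). All of these changes were under 2-fold.

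**Figure D2:**
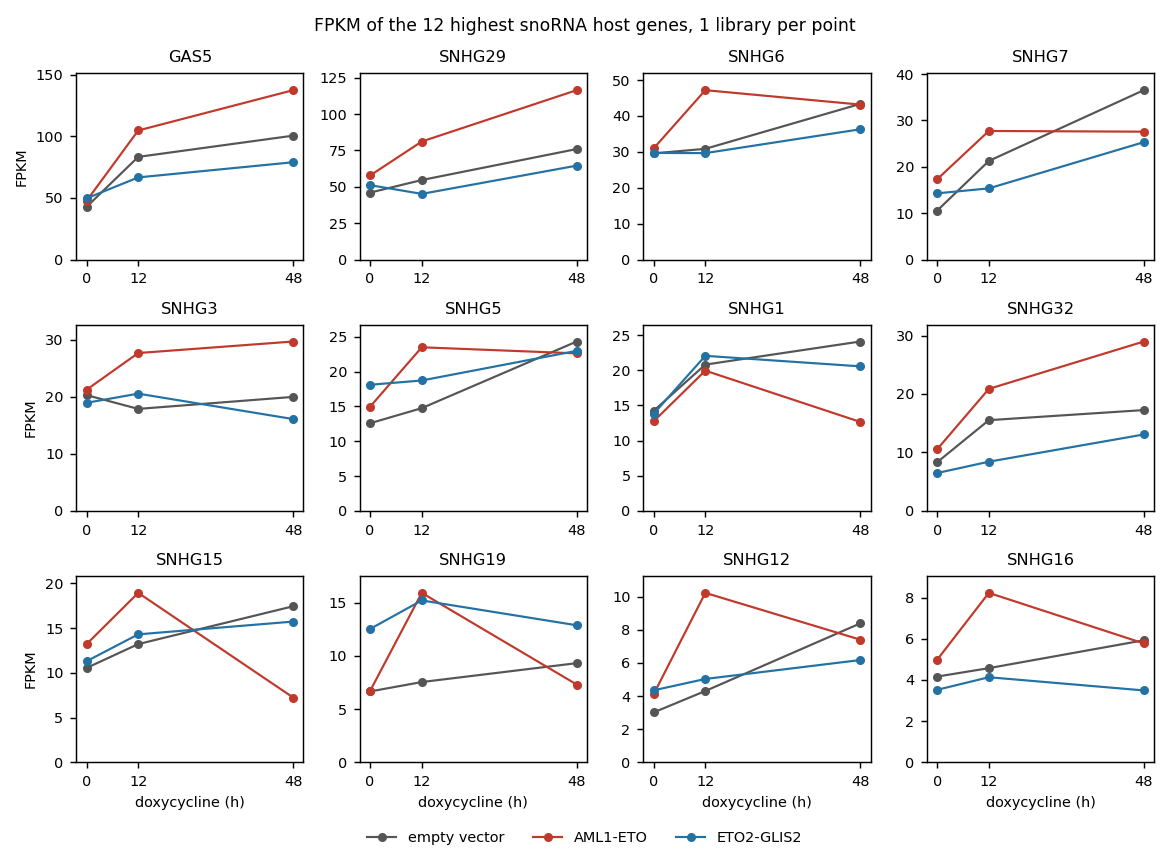
FPKM (vertical axis, from 0) is plotted against hours of doxycycline (horizontal axis) for the 12 members with the highest mean, with 1 library per point and no error bars; grey, red and blue lines join the libraries of the empty vector, AML1-ETO and ETO2-GLIS2 lines. GAS5, SNHG29 and SNHG32 are highest at 48 h of AML1-ETO, and SNHG1, SNHG12, SNHG15, SNHG16 and SNHG19 peak at 12 h in the AML1-ETO line.

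The other host genes behaved differently in the AML1-ETO line: of the 19 members with a mean of at least 1 FPKM, 14 had their highest value at 12 h, and GAS5, SNHG3, SNHG29, SNHG32 and ZFAS1 had values that increased from 0 to 12 and from 12 to 48 h. Among all genes with this mean, 32.8% were highest at 12 h and 34.0% increased at both steps in that line. In the empty vector line 17 of the same 19 increased at both steps, where 35.2% of all genes did, with EPB41L4A-AS1 highest at 12 h and SNHG3 lowest at 12 h. In the ETO2-GLIS2 line 9 increased at both steps, 8 were highest at 12 h and SNHG6 and SNHG29 were lowest at 12 h, against 37.4%, 30.2% and 18.4% of all genes. These orders rest on 1 library per time, and several of the steps are smaller than their counting intervals.

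SNHG15 (chr7:44983023-44986696), host of SNORA9 and known as a short-lived RNA, ended below its 0 h level in the AML1-ETO line and above it in the others. It was at 10.5, 13.2 and 17.5 FPKM in the empty vector line, 13.2, 18.9 and 7.24 FPKM in the AML1-ETO line and 11.3, 14.3 and 15.7 FPKM in the ETO2-GLIS2 line. The AML1-ETO library at 48 h was the lowest of the 9 and held 434 reads, against 1152 at 12 h. The log2 change from 12 to 48 h was -1.39 (-1.55 to -1.23) in that line, and from 0 to 48 h it was -0.87 (-1.04 to -0.70), against 0.73 in the empty vector line and 0.48 in the ETO2-GLIS2 line.

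SNHG1 (chr11:62851978-62855885), which holds 8 C/D snoRNAs from SNORD22 to SNORD31, was higher by similar amounts in the 3 lines at 12 h and not at 48 h. It was at 14.2, 20.8 and 24.1 FPKM in the empty vector line, 12.7, 19.96 and 12.7 FPKM in the AML1-ETO line and 13.8, 22.1 and 20.6 FPKM in the ETO2-GLIS2 line. The log2 changes at 12 h were 0.55, 0.65 and 0.67, with intervals that overlap. At 48 h the AML1-ETO line was back at its 0 h level, with a change of -0.01 (-0.15 to 0.13), while the other lines had changes of 0.76 and 0.57.

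SNHG19 (chr16:2154782-2155358), a short gene around SNORD60, was at 6.65, 7.53 and 9.31 FPKM in the empty vector line, 6.70, 15.9 and 7.30 FPKM in the AML1-ETO line and 12.5, 15.2 and 12.9 FPKM in the ETO2-GLIS2 line. The AML1-ETO value at 12 h was the highest of the 9, but it rests on 84 reads against 38 at 0 h, a log2 change of 1.25 (0.68 to 1.84). It then fell by a log2 change of -1.12 (-1.72 to -0.55) to 48 h.

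Also among the members that fell past 2-fold from 12 to 48 h of AML1-ETO was SNHG10, at 0.938, 1.43 and 1.697 FPKM in the empty vector line, 1.05, 2.002 and 0.713 FPKM in the AML1-ETO line and 0.818, 1.31 and 0.708 FPKM in the ETO2-GLIS2 line. Its change over these 36 h was -1.48 (-1.94 to -1.05) in the AML1-ETO line. SNHG21, with 29 reads at 12 h and 12 at 48 h, was the fourth, at -1.24 (-2.36 to -0.24), and 72.9% of its exon bases are shared with another gene on the same strand. In all, 4 of 22 measured members were past a 2-fold fall and 0 past a 2-fold rise between these 2 libraries, where 10.2% of all genes fell and 9.12% rose past 2-fold, and the median over the measured members was -0.19. SNHG10 and SNHG21 were measured through the 12 h library only, so their part in this count follows from how they were chosen.

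SNHG4, SNHG8 and EPB41L4A-AS1, low-abundance hosts of H/ACA snoRNAs, were among the 7 measured members past a 2-fold rise at 12 h of AML1-ETO, and SNHG4 had the highest change of these. SNHG4 (chr5:139274101-139284900), host of SNORA74A, was at 2.50, 3.84 and 3.97 FPKM in the empty vector line, 1.79, 7.70 and 5.56 FPKM in the AML1-ETO line and 2.55, 5.07 and 4.01 FPKM in the ETO2-GLIS2 line. The AML1-ETO line started lowest and was highest at both later times, with log2 changes of 2.09 (1.82 to 2.39) at 12 h and 1.63 (1.34 to 1.93) at 48 h. Of the exon bases of SNHG4, 14% are shared with another gene on the same strand, MATR3. SNHG8 (chr4:118278762-118279823), host of SNORA24, was at 1.63, 2.61 and 2.90 FPKM in the empty vector line, 1.91, 4.97 and 4.17 FPKM in the AML1-ETO line and 2.66, 3.30 and 3.22 FPKM in the ETO2-GLIS2 line. Its AML1-ETO changes were 1.38 (1.15 to 1.62) and 1.12 (0.88 to 1.37), and no other line passed 2-fold. Of its exon bases, 37.6% overlap PRSS12 on the opposite strand.

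EPB41L4A-AS1 (chr5:112160526-112162501), host of SNORA13, was at 1.94, 3.71 and 3.53 FPKM in the empty vector line, 2.13, 5.25 and 4.24 FPKM in the AML1-ETO line and 2.38, 2.89 and 2.98 FPKM in the ETO2-GLIS2 line. It passed 2-fold only at 12 h of AML1-ETO, with a log2 change of 1.29 (1.01 to 1.60), and 51.2% of its exon bases overlap EPB41L4A on the opposite strand. SNHG17, within whose bounds SNORA71A to SNORA71D lie, had a similar course at 2.11, 3.02 and 3.35 FPKM in the empty vector line, 1.88, 4.22 and 2.53 FPKM in the AML1-ETO line and 1.97, 2.54 and 2.64 FPKM in the ETO2-GLIS2 line. Its change at 12 h of AML1-ETO was 1.17 (0.99 to 1.35), so that the lower bound lies just under 2-fold.

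SNHG12 (chr1:28578538-28582983), which holds SNORA16A, SNORA44, SNORA61 and SNORD99, passed 2-fold at different times in 2 lines. It was at 3.01, 4.31 and 8.39 FPKM in the empty vector line, 4.11, 10.2 and 7.41 FPKM in the AML1-ETO line and 4.35, 5.03 and 6.18 FPKM in the ETO2-GLIS2 line. The empty vector line reached a log2 change of 1.48 (1.25 to 1.72) at 48 h, and the AML1-ETO line reached 1.31 (1.11 to 1.52) at 12 h and was at 0.85 at 48 h.

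SNHG7 (chr9:136724594-136728184), host of SNORA17A and SNORA17B, rose most in the empty vector line. It was at 10.6, 21.3 and 36.5 FPKM there, 17.3, 27.7 and 27.6 FPKM in the AML1-ETO line and 14.3, 15.4 and 25.3 FPKM in the ETO2-GLIS2 line. The empty vector line began lowest and ended highest, with log2 changes of 1.01 (0.89 to 1.13) at 12 h and 1.79 (1.68 to 1.90) at 48 h, against 0.67 and 0.83 at 48 h in the fusion lines. Without a fusion, SNHG7 was the only measured member past 2-fold at 12 h, and 30.3% of its exon bases overlap DIPK1B on the opposite strand.

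SNHG26, host of SNORD93, passed 2-fold by a small margin, at 48 h of the empty vector line. It was at 0.670, 1.08 and 1.36 FPKM in the empty vector line, 0.536, 1.45 and 1.32 FPKM in the AML1-ETO line and 0.546, 0.853 and 0.615 FPKM in the ETO2-GLIS2 line. Its change was 1.01 (0.58 to 1.48) in the empty vector line, where it was measured only through the 48 h library. In the AML1-ETO line its ratio was larger, at log2 changes of 1.41 at 12 h and 1.29 at 48 h, but its mean over the 2 libraries was under 1 FPKM and it was not counted.

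The remaining abundant members stayed under 2-fold in every comparison with 0 h. SNHG6, host of SNORD87, was at 29.6, 30.8 and 43.3 FPKM in the empty vector line, 31.0, 47.2 and 43.2 FPKM in the AML1-ETO line and 29.7, 29.6 and 36.3 FPKM in the ETO2-GLIS2 line. For SNHG6, 58.9% of the exon bases overlap MCMDC2 on the opposite strand. SNHG5, host of SNORD50A and SNORD50B, was at 12.6, 14.8 and 24.3 FPKM, 14.97, 23.5 and 22.6 FPKM, and 18.1, 18.7 and 23.0 FPKM in the same order of lines. SNHG16, host of the SNORD1 snoRNAs, was at 4.16, 4.57 and 5.92 FPKM, 4.98, 8.23 and 5.77 FPKM, and 3.52, 4.13 and 3.49 FPKM. In all 3 genes the AML1-ETO line was already higher at 12 h, and the empty vector line had most of its increase after 12 h, so that these lines were at close levels at 48 h. SNHG30, on 28 to 60 reads per library, stayed between 1.08 and 2.10 FPKM.

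Of the 10 members with a mean below 1 FPKM, SNHG14, a very long transcript across the imprinted region of chromosome 15, lay between 0.485 and 1.07 FPKM and was highest at 48 h of ETO2-GLIS2. SNHG11 and SNHG20 were at or under 0.907 FPKM and SNHG31 at or under 0.496 FPKM in each library. SNHG9 lay between 0.222 and 1.31 FPKM. SNHG22, SNHG25 and SNHG27 were listed at 0 in at least 2 libraries each, and SNHG25 reached 1.17 FPKM in a single library, the empty vector line at 48 h. SNHG22, SNHG25 and SNHG27 had at most 8 reads in any library, and SNHG27 had those 8 at 48 h of AML1-ETO against 0 at 0 h.

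The difference between a fusion line and the empty vector line, taken as the log2 change of one minus that of the other over the same hours, gave different values for the 2 fusions, although the difference between them was not tested. For AML1-ETO at 12 h it was above 0 in 16 of 18 members measured in both lines, with a median of 0.39, whereas over all genes 52.2% were above 0 and the median was 0.02. SNHG4 (1.48) and SNHG19 (1.07) were past 1, as were 2.85% of all genes, no member was past 1 below 0, as 3.65% of all genes were, and SNHG7 (-0.33) and SNHG30 (-0.40) were below 0. At 48 h the median was -0.15, with 8 members above and 10 below 0, near the 50.9% and 49.1% of all genes and their median of 0.01, and SNHG15 (-1.59) and SNHG7 (-1.12) were past 1 below 0, as were 12.5% of all genes. None was past 1 above 0, where 8.09% of all genes were, and SNHG4 (0.96), ZFAS1 (0.85) and SNHG3 (0.51) were the highest at that time.

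For ETO2-GLIS2 the difference was small at 12 h, with a median of -0.17 and 11 of 18 members below 0, where 53.3% of all genes lay below 0 with a median of -0.02, and at 48 h it was below 0 in 17 of 18, with a median of -0.42. Over all genes 47.9% lay below 0 at 48 h, with a median of 0.02. The lowest values at 48 h were those of SNHG12 (-0.97), SNHG7 (-0.96) and SNHG30 (-0.80), and the 1 value above 0 was that of ZFAS1 (0.03). No member was past 1 in either direction in the ETO2-GLIS2 line, where 1.48% of all genes were above and 2.45% below at 12 h, and 3.35% above and 3.18% below at 48 h. Both fusions were set against the same 3 empty vector libraries, so an unusual value in one of these would move both differences in the same direction.

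The members with a C start and pyrimidine run (SNHG4, SNHG5, SNHG12, SNHG19, SNHG32 and ZFAS1 among those with a mean of at least 1 FPKM) had a median log2 change of 1.28 at 12 h of AML1-ETO, from 0.65 (SNHG5) to 2.09 (SNHG4). The 11 other members with a promoter entry had a median of 0.72, from 0.38 to 1.38. These groups follow the annotated start only, so a host whose used start differs may be placed wrongly. GAS5 is in the other group, as are SNHG1 and SNHG7, whose pyrimidine runs from a C start are 3 and 4 bases long. At 12 h the same groups had medians of 0.57 and 0.61 in the empty vector line and 0.33 and 0.31 in the ETO2-GLIS2 line. The 6 members with TATAA had a median of 1.28 at 12 h of AML1-ETO as well, and 4 of them also have the pyrimidine run. At 48 h the medians were 1.15 and 0.48 with AML1-ETO, 0.99 and 0.83 with the empty vector, and 0.58 and 0.32 with ETO2-GLIS2. The ranges overlapped in all 6 comparisons and no test was run.

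At 12 h of AML1-ETO, DANCR and DLEU2, the 2 measured genes listed as snoRNA hosts under other names, had a median log2 change of 0.89. This was about that of the host genes of the rule, at 0.92, and the other gene lists of the pathway had lower medians. Hosted snoRNAs were looked up for the members of the rule only, so the listing of DLEU2 as a snoRNA host was not checked. Outside the rule, DANCR, host of SNORA26, was at 5.21, 9.82 and 7.17 FPKM in the AML1-ETO line, 3.20, 2.78 and 2.73 FPKM in the empty vector line and 7.38, 9.41 and 5.72 FPKM in the ETO2-GLIS2 line. DLEU2, of the same list, passed 2-fold at 48 h of the empty vector line, from 1.13 to 2.38 FPKM. Of 19 proteins of snoRNA particles and their assembly, none passed 2-fold from 0 h in any line. Of all genes, 3.03% to 17.3% passed a 2-fold rise and 1.46% to 11.3% a 2-fold fall over these comparisons. The lowest median of the particle proteins was -0.37 (AML1-ETO, 48 h), where that of all genes was 0.22. Their highest was 0.35 (AML1-ETO, 12 h), where that of all genes was 0.18. NOLC1, which assists particle assembly, fell past 2-fold from 12 to 48 h of AML1-ETO, from 111 to 50.3 FPKM, as did 10.2% of all genes. FBL, the methyltransferase fibrillarin of C/D particles, was at 84.8, 81.1 and 45.3 FPKM in the AML1-ETO line, 88.4, 79.0 and 67.8 FPKM in the empty vector line and 65.4, 56.9 and 40.9 FPKM in the ETO2-GLIS2 line. Of 23 protein-coding genes that also carry snoRNAs in their introns, the chaperone gene HSPA8 fell past 2-fold at 12 h without a fusion, from 158 to 77.3 FPKM, as did 1.88% of all genes. EIF4A2, a translation initiation factor, passed a 2-fold rise at 48 h of AML1-ETO, from 43.9 to 110 FPKM, as did 17.3% of all genes. No other gene of this list passed 2-fold from 0 h, and PPAN fell past 2-fold from 12 to 48 h of AML1-ETO, where 10.2% of all genes did. Of 16 translation genes whose mRNAs begin with an oligopyrimidine tract, 15 were measured and none passed 2-fold from 0 h. Their medians ran from -0.14 to 0.26, and those of all genes from 0.11 to 0.22.

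Nonsense-mediated decay factors were close to the median of all genes, with medians from 0.10 to 0.18 over 21 genes. At 48 h, MAGOH, of the exon junction complex, had gone from 16.7 to 35.1 FPKM with the empty vector and SMG6, an endonuclease of the pathway, from 2.30 to 4.74 FPKM with ETO2-GLIS2, and no other factor passed 2-fold from 0 h. The factors of decapping and exonucleolytic decay had medians from -0.04 to 0.24 in the other 5 comparisons but 0.74 at 48 h of AML1-ETO, where that of all genes was 0.22. In that comparison 3 of 9 passed a 2-fold rise, against 17.3% of all genes: DCP1A from 9.91 to 31.3 FPKM, XRN1 from 5.78 to 16.3 FPKM and PATL1 from 21.9 to 46.9 FPKM. The mRNAs known as targets of nonsense-mediated decay rose past 2-fold in 2, 3 and 0 of 10 genes at 12 h, in the order empty vector, AML1-ETO and ETO2-GLIS2. Of all genes, 5.64%, 6.57% and 3.03% did. At 48 h it was 4, 5 and 5 of 10 genes, against 8%, 17.3% and 10.8% of all genes. These calls were of ATF4, ATF3, DDIT3 and SLC7A11, with GADD45A added at 48 h of AML1-ETO and MAP3K14 at 48 h of ETO2-GLIS2. No other gene of this list passed a 2-fold rise. DDIT3 in the empty vector line (0.800 FPKM at 0 h) and ATF3 in the ETO2-GLIS2 line (0.832 FPKM at 0 h) were measured only through the later library. SLC7A11, the cystine transporter, went from 2.72 to 12.6 and 69.0 FPKM in the AML1-ETO line, and ATF4, the stress response factor, from 86.7 to 198 and 312 FPKM, both also past a 2-fold rise at 48 h in the other lines. ATF4, ATF3, DDIT3 and SLC7A11 are themselves part of the amino acid stress response, so these counts do not stand for decay targets in general. The part of that response in the host gene values was not tested.

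**Figure D3:**
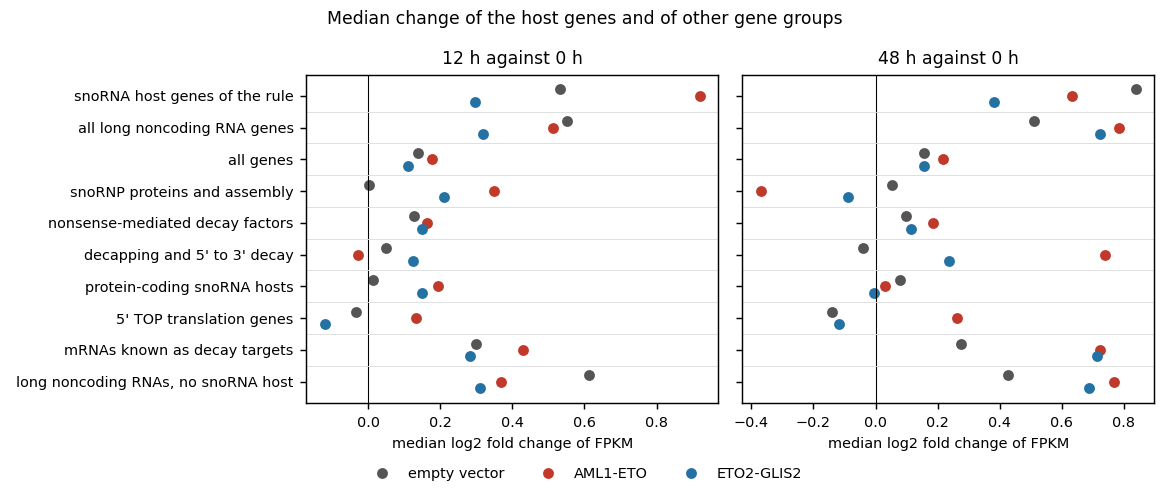
The median log2 fold change of FPKM (horizontal axis) of the measured host genes, of all long noncoding RNA genes, of all genes and of 7 other gene lists is plotted for 12 h (left) and 48 h (right) against 0 h; grey, red and blue points are the empty vector, AML1-ETO and ETO2-GLIS2 lines. At 12 h of AML1-ETO the host genes are at 0.92 and every other list shown is below 0.6. DANCR and DLEU2, the 2 measured genes of the list of hosts under other names, at 0.89, are not shown. At 48 h the long noncoding RNA genes lie above the host genes in both fusion lines.

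Scaling moved the levels of all genes together. Rescaling the libraries by the median ratio of all genes lowered the all-gene median by a log2 value of -0.12 to -0.17, and the medians of the measured host genes at 12 h became 0.38, 0.76 and 0.18 in the empty vector, AML1-ETO and ETO2-GLIS2 lines, and at 48 h 0.69, 0.47 and 0.22. All 6 stayed above 0, and the order of the lines was kept at both times. The number of members past a 2-fold rise became 0, 6 and 0 at 12 h and 3, 4 and 0 at 48 h, and SNHG15 passed a 2-fold fall at 48 h of AML1-ETO.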

How the data were processed

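RNA-seq libraries of 9 conditions were made from total RNA as input with version 2 of a TruSeq RNA kit, which does not mark strand. Whether RNA was selected by its poly(A) tail is not stated in the paper, and RNA without a tail may be underrepresented. The authors mapped reads with HISAT2 (2.0.5) against hg38, processed the alignments in SAMtools (1.7), ran HTSeq (0.9.1) for gene counts at default settings and deposited FPKM for 60623 genes. DESeq2 (1.22.2) is named in the submitters' processing notes without a role. The annotation version is not given in the sources used here. Gene types and exon overlaps came from GENCODE on GRCh37, which matched 96.6% of identifiers, and coordinates and promoters from RefSeq on GRCh38.p14. No coordinates were converted.

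The FPKM of a gene are multiples of the value of a single read, and whole reads were recovered for 99.99% of 23889 genes listed above 0 in 3 or more libraries. Library totals were 15136398 to 18443639 reads on genes. Of 29 members with a recovered exon length, 12 had exactly, and 20 within 5% of, the union of all annotated exons, so the FPKM of genes with long retained-intron isoforms are low for their spliced RNA. Fold changes are on the scale of log2(FPKM + 0.01), which understates changes of very low genes. A gene was measured when its mean over the 2 libraries was at least 1 FPKM, and called past 2-fold. Exact Clopper-Pearson 95% intervals of read ratios cover counting error only, since reads were not tagged by molecule. Read recovery and calls were tested on simulated data. Python (3.11.15), numpy (2.4.6), pandas (2.3.3), scipy (1.17.1), numba (0.67.0) and matplotlib (3.10.9) were used.

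The members and lists were chosen with earlier results of these data known. Values in all 9 libraries are given for the 12 members with the highest mean and for every member past 2-fold in a comparison with 0 h, and from other lists the gene with the highest mean and any gene past 2-fold could be named. SNHG10, SNHG21, CD14, CD68, MPO, EEF1G, NOLC1, PPAN, T and B cell markers, FBL and low members were named outside this rule after their values were seen. Where a name had several identifiers, the one with the highest mean was used. Alternatives changed the pseudocount, the filter, the scaling, the fold threshold and the use of the empty vector line, and a filter at 0 h was added after seeing the data.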

Additional observations from a re-analysis of the deposited data

Results flagged for a closer look

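SNHG3 stood out because its changes were above 0 with AML1-ETO and below 0 with the empty vector at both times. Its log2 change was 0.38 at 12 h and 0.48 at 48 h of AML1-ETO, against -0.18 and -0.02 in the empty vector line, where the counting interval at 48 h, -0.13 to 0.09, includes 0, a difference of 0.56 at 12 h and 0.51 at 48 h. With 1 library per condition the difference was not tested.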

How the results depend on the processing

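Of 34 median changes of the measured members under the alternatives, 31 stayed above 0. The 3 that turned negative came from subtracting the empty vector line: -0.17 for ETO2-GLIS2 at 12 h, and -0.15 for AML1-ETO and -0.42 for ETO2-GLIS2 at 48 h, while AML1-ETO at 12 h became 0.42 over its 19 measured members. After this subtraction, 2 members at 12 h and 0 at 48 h of AML1-ETO were past 2-fold higher and 2 at 48 h lower, and 0 were higher at 48 h of ETO2-GLIS2. A pseudocount of 1 FPKM gave a median of 0.57 for the empty vector line at 48 h, and 0 members past a 2-fold rise in it at 12 h, 3 at 48 h, 3 at 48 h of AML1-ETO and 0 at 48 h of ETO2-GLIS2. Without a filter, the members past a 2-fold rise at 12 h were 4, 12 and 1 in the empty vector, AML1-ETO and ETO2-GLIS2 lines and at 48 h 10, 10 and 6, and those past a fall were 1, 1 and 2 at 12 h and, at 48 h, 1 with AML1-ETO and 2 with ETO2-GLIS2. With a mean of at least 5 FPKM, 3 rose at 12 h and 3 at 48 h of AML1-ETO and 1 at 48 h of ETO2-GLIS2. Median-ratio rescaling gave 0 at 12 h and 3 at 48 h in the empty vector line, 1 fall at 48 h of AML1-ETO, and 0 with a median of 0.22 at 48 h of ETO2-GLIS2. With a 1.5-fold threshold, 8, 15 and 3 rose at 12 h and 16, 10 and 5 at 48 h, and 1 fell at 48 h of AML1-ETO. With at least 1 FPKM at 0 h, chosen after seeing the data, 1 rose at 48 h of ETO2-GLIS2. Fewer or more members are measured under each filter by construction, and for the other alternatives the cause was not tested.

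No replicate was left out, since each condition had 1 library, and counting intervals leave variation between cultures unmeasured. Members with few reads, such as SNHG19, SNHG21 and SNHG30, have intervals that reach over 1 log2 unit in width. No paired analysis was possible because each condition had 1 library and no replicate numbers.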
